A study of Caenorhabditis elegans with 3 samples.

Results

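The *nssp* genes of the nematode *Caenorhabditis elegans* were described across 3 two-colour arrays of late L4 animals. Members were all genes whose current symbol is nssp- followed by a number, with the platform's gene symbols updated by Entrez ID to the RefSeq gene table of assembly WBcel235. That table lists 86 such genes, all of them protein-coding. Of these, 42 had a feature assigned to them alone, 1 feature each, with a value on all 3 arrays, among 19292 gene rows tested in all. The other 44 had none listed and were not analysed here. The rule itself reads symbols only, but the family was proposed with the values of this same comparison known. Its levels are therefore given as a description, and nothing is read from how many members passed the test.

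Each array carried RNA of 1 late L4 hermaphrodite preparation (prep 1, 2 or 3) in channel 2 and a wild-type mixed reference RNA in channel 1. The late L4 label carries the code TP05 on all 3 arrays and names no strain, treatment or hours of growth, and what was mixed in the reference is not given in the sources used here. L4 is the last larval stage of the worm: the hermaphrodite gonad makes sperm in it before it turns to oocytes, and the epidermis builds the adult cuticle under the larval one. In worm nomenclature, genes that share a class name are numbered within the class, and each gene also has a sequence name taken from the clone it was found on, such as F17C11.2 for *nssp-64*. The sources used here give the *nssp* class no function and the genes no individual roles, so members are ordered below by level, chromosome and position.

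The deposited values are log2 ratios, 1 per feature and array. Late L4 over reference is their likely direction, read from descriptions that put late L4 before the reference, and nothing deposited with the values states it, so "lower" stands for lower in late L4 under that reading. The 3 arrays measured 19825 to 19903 of 20000 features each and had medians from -0.10 to 0.01. None was dye-swapped, the reference had no replicate, signal over background is unknown, and the number of arrays limits the precision. Each array title bears its own date, so date and prep cannot be told apart. Whether each prep was a culture of its own is not in the labels, so p-values cover just the prep-to-prep spread, and that spread may be technical.

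Most *nssp* genes had log2 ratios below 0. The mean log2 ratio of the 3 preps was below 0 for 38 of 42 *nssp* genes, or 90.5%, against 52.3% of all genes tested. The family's median was -0.43, beside -0.03 for all genes, and its middle 50% ran from -0.83 to -0.23, beside -0.36 to 0.33. Prep by prep, the family's medians were -0.62, -0.42 and -0.47 for preps 1, 2 and 3, where all genes had 0.01, -0.10 and -0.06. Values below 0 on all 3 arrays were found for 24 *nssp* genes, or 57.1%, against 27.9% of all genes. No *nssp* gene was above 0 on all 3 arrays, while 23.2% of all genes were. The RNA is that of whole animals, so fewer cells of a type and less RNA per cell cannot be told apart.

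**Figure D1:**
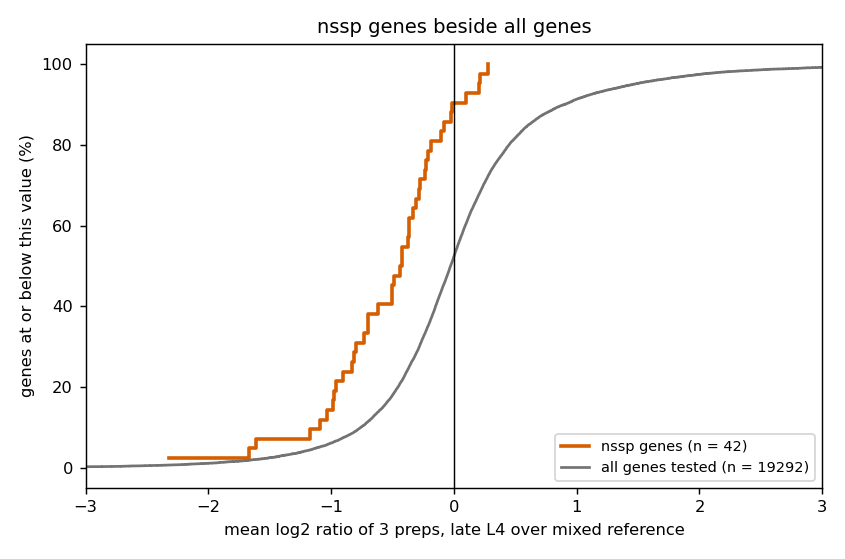
Cumulative share of genes (vertical axis, %) at or below each mean log2 ratio of late L4 over mixed reference (horizontal axis, cut at -3 and 3). The 42 nssp genes lie to the left of the 19292 genes tested, with a median of -0.43 beside -0.03, and none exceeds 0.27.

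In the limma fit over all genes, 11 of the 42 *nssp* genes were lower at an adjusted p under 0.05, beside 10.8% of all genes called lower. None was higher in limma, beside 12% of all genes called higher. At an unadjusted p under 0.05, 17 *nssp* genes were lower and none was higher, beside 16.5% of all genes lower and 16.5% higher. Without moderation of the variances limma called 0 members and 0 genes in all, and 11 members were lower at an unadjusted p under 0.05. The count of lower members also moved with the preps that entered: 6 were called without prep 1, where 6.93% of all genes were, and 8 without prep 3, where 7.09% were. Without prep 2 the count was 13, beside 9.21% of all genes. *nssp-23*, *nssp-39*, *nssp-64*, *nssp-78* and *nssp-82* were called lower without each prep in turn. Only 6 members, the 6 lowest by mean, were lower by at least 2-fold, beside 6.05% of all genes.

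*nssp-64* (F17C11.2, chromosome V) was the lowest of the family. Its log2 ratios were -2.68 on prep 1, -2.13 on prep 2 and -2.16 on prep 3, a mean of -2.32 ± 0.31 (SD, n = 3) that amounts to 5.01-fold lower in late L4. All of its values lay below every value of *nssp-82*, the fourth lowest, and 0.638% of all genes had a lower mean. *nssp-23* (ZK971.1, chromosome II) had -2.16, -1.03 and -1.82 on preps 1, 2 and 3 and was 3.18-fold lower (-1.67 ± 0.58). *nssp-78* (T22E5.1, chromosome X) followed the same order over the preps, with -2.13, -1.05 and -1.66, and was 3.06-fold lower (-1.61 ± 0.54). For both genes prep 1 was the farthest from the reference and prep 2 the nearest, and neither was below the other on all 3 preps, so their order is not resolved.

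*nssp-82* (C18A11.2, chromosome X) read -1.27 on prep 1, -0.90 on prep 2 and -1.35 on prep 3 in log2 ratio, a mean of -1.17 ± 0.24 (SD, n = 3) and a 2.25-fold lower level. *nssp-39* (M03D4.3, chromosome IV) was the most even of the 6, with -0.88, -0.99 and -1.22, and was 2.05-fold lower (-1.03 ± 0.17). *nssp-55* (C12D5.3, chromosome V) spread more, with -1.76, -1.03 and -0.47, and was 2.12-fold lower (-1.09 ± 0.65). Prep 1 carried much of the *nssp-55* mean: without it the mean was -0.75 and the gene was not called. None of these 3 genes was below another on all 3 preps, so their order is not resolved either.

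A further 5 members passed the test at less than 2-fold. *nssp-86* (C07B5.3), *nssp-76* (T07D1.3), *nssp-87* (F41E7.7) and *nssp-88* (C05E7.3), all on the X, had means of -0.98 ± 0.34, -0.96 ± 0.31, -0.83 ± 0.27 and -0.82 ± 0.34 (SD, n = 3). These 4 genes had the same shape over the preps at one point: in each, prep 2 was nearest to 0, from -0.61 for *nssp-86*, *nssp-76* and *nssp-87* to -0.43 for *nssp-88*. *nssp-29* (C54C6.5, chromosome III) had a mean of -0.70 ± 0.14. Calls of all 5 genes were lost in 1 or more of the fits that left out 1 prep, which rest on fewer arrays. *nssp-29* was not called without any 1 prep, with means of -0.78, -0.67 and -0.65 without preps 1, 2 and 3. *nssp-76*, *nssp-87* and *nssp-88* were not called without prep 1 (means -0.82, -0.87 and -0.77) or without prep 3 (means -0.92, -0.68 and -0.67), and *nssp-86* was not called without prep 3 (mean -0.83). Without prep 1, the means of *nssp-29* and *nssp-87* lay farther from 0 than with all preps. Those losses therefore do not show that the calls rested on prep 1. Under median centring of each array, *nssp-29* also missed the threshold, at a mean of -0.65.

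**Figure D2:**
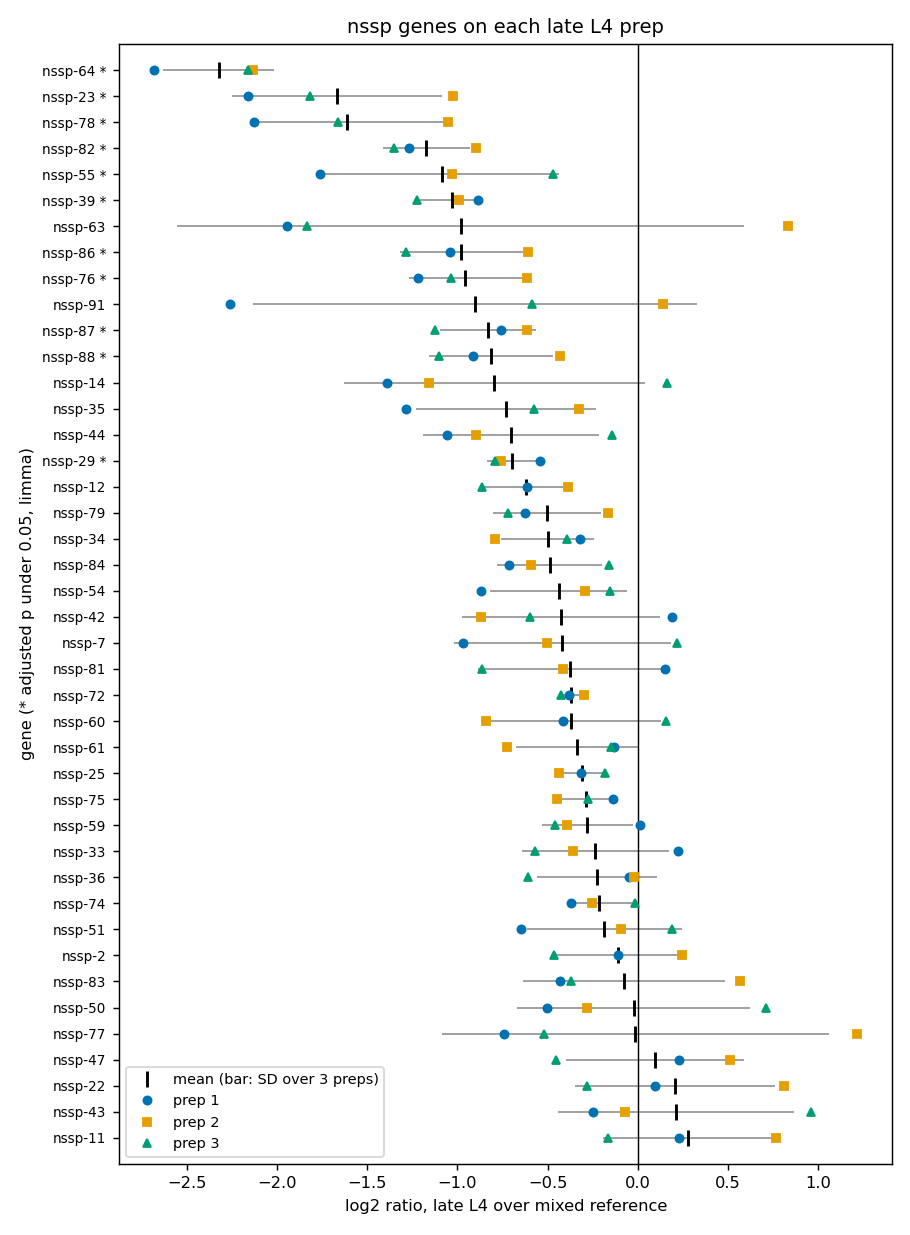
Log2 ratio of late L4 over mixed reference (horizontal axis) for each of the 42 nssp genes, lowest mean at the top, with 1 symbol per prep, a black tick at the mean and a bar of 1 SD over the 3 preps. The 11 genes marked with an asterisk passed the limma test, and 24 genes have all 3 symbols left of 0.

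The other 31 members did not pass, and 27 of them had a mean below 0. The 4 with a mean above 0 were *nssp-11*, *nssp-43*, *nssp-22* and *nssp-47*. *nssp-11* (Y39F10A.1, chromosome II) was the highest of the family, reading 0.23, 0.77 and -0.17 in log2 ratio over preps 1, 2 and 3, with a mean of 0.27 ± 0.47 (SD, n = 3). *nssp-22* (T10B9.9, chromosome II) had 0.09, 0.81 and -0.28, a mean of 0.21 ± 0.56 that was -0.10 without prep 2. In both genes the value lay above 0 on preps 1 and 2 and below it on prep 3.

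*nssp-43* (F35H10.2, chromosome IV) had -0.25, -0.07 and 0.96 on preps 1, 2 and 3, so its mean of 0.21 ± 0.65 (SD, n = 3) rested on prep 3, and was -0.16 without it. *nssp-47* (C43F9.7, chromosome IV) had 0.23, 0.51 and -0.45, a mean of 0.09 ± 0.50 that was -0.11 without prep 2. The next below were *nssp-77* (C07A12.2, chromosome X) and *nssp-50* (C50H11.8, chromosome V), both with a mean of -0.02. Their values were -0.74, 1.22 and -0.52 for *nssp-77* and -0.50, -0.28 and 0.71 for *nssp-50*. In all 6 genes the preps disagreed in sign. Of the 15 pairs among them, 1 kept its order on all 3 preps: *nssp-43* lay above *nssp-50* by 0.25, 0.21 and 0.25. The means of *nssp-50* and *nssp-77* turned to 0.02 and 0.03 under median centring.

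Some members differed between preps by more than the family's own shift. The SD over preps was above 1 for 3 of 42 members and for 3.12% of all genes, and the median SD was 0.39 for the family and 0.36 for all genes. *nssp-63* (F58B4.3, chromosome V), named after its values were seen, had -1.94, 0.83 and -1.84 on preps 1, 2 and 3, a mean of -0.98 ± 1.57 (SD, n = 3), and 99.6% of all genes had a smaller SD. It was not called, but without prep 2 its mean was -1.89 and it was called lower. *nssp-91* (F38E9.6, chromosome X), chosen likewise, had -2.26, 0.14 and -0.59, a mean of -0.90 ± 1.23, and, of the fits that left out 1 prep, was called lower in the one without prep 2, at a mean of -1.42. The third was *nssp-77*. In all 3 genes prep 2 was the highest array.

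That pattern ran through much of the family. Prep 2 was the highest of the 3 arrays for 21 of 42 *nssp* genes, or 50.0%, against 30.4% of all genes, and the lowest for 6, or 14.3%, against 35.6%. Prep 1 was the lowest for 19, or 45.2%, against 30.1% of all genes. The arrays' overall medians ran the other way, with prep 2 the lowest at -0.10 and prep 1 the highest at 0.01. Their SDs over all measured features were 0.97, 0.85 and 0.89 on preps 1, 2 and 3. Ratios thus spread least on prep 2, where the family's median lay nearest 0, and most on prep 1, where it lay farthest. What this difference in spread contributes to the pattern was not tested. At the steady end, *nssp-72* (Y43F8A.1, chromosome V), named after its values were seen, had -0.38, -0.30 and -0.43, a mean of -0.37 ± 0.07 (SD, n = 3), and 2.08% of all genes had a smaller SD. Across the 42 members, which share these arrays, Pearson's r was 0.41 for the pair of preps 1 and 2, 0.55 for 1 and 3, and 0.27 for 2 and 3. For the 11 members that passed the test, the same pairs had 0.79, 0.67 and 0.64. For the 31 that did not pass they had 0.00, 0.17 and -0.30, so the order of those members did not repeat between preps. Both sets were chosen by these same values. Over all 19292 genes, which span a wider range of ratios, the same pairs had 0.70, 0.73 and 0.69. Genes are not independent replicates, and these coefficients are descriptions.

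The X chromosome holds 14 of the 42 measured *nssp* genes, or 33.3%, but 14.9% of the measured named genes. In the gene table itself the X holds 18 of the 86 family members, or 20.9%. The arrays covered 77.8% of the family's X-linked genes and 41.2% of its autosomal ones, while they covered 80.3% of all protein-coding genes on the X and 71.2% on the autosomes. All 14 X-linked members had a mean below 0, and 10 were below 0 on all 3 arrays. Of the 28 autosomal members, 24 had a mean below 0 and 14 were below 0 on all 3 arrays.

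The median was -0.66 for the X-linked members and -0.39 for the autosomal ones. Over all named genes the medians were -0.14 on the X and -0.02 on the autosomes. The members' medians on preps 1, 2 and 3 were -0.75, -0.44 and -0.79 on the X and -0.46, -0.39 and -0.44 on the autosomes. The X-linked median was the lower of the pair on each prep, by least on prep 2. On the X, 6 of the 14 members passed the test as lower (*nssp-78*, *nssp-82*, *nssp-86*, *nssp-76*, *nssp-87* and *nssp-88*), beside 14.4% of all named X-linked genes. On the autosomes 5 of 28 passed (*nssp-64*, *nssp-23*, *nssp-55*, *nssp-39* and *nssp-29*), beside 11.6% of named autosomal genes. The difference between X-linked and autosomal members was not tested. On single autosomes the members' medians were -0.26 on I, -0.47 on II, -0.50 on III, -0.43 on IV and -0.37 on V, from 2, 6, 5, 5 and 10 genes.

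**Figure D3:**
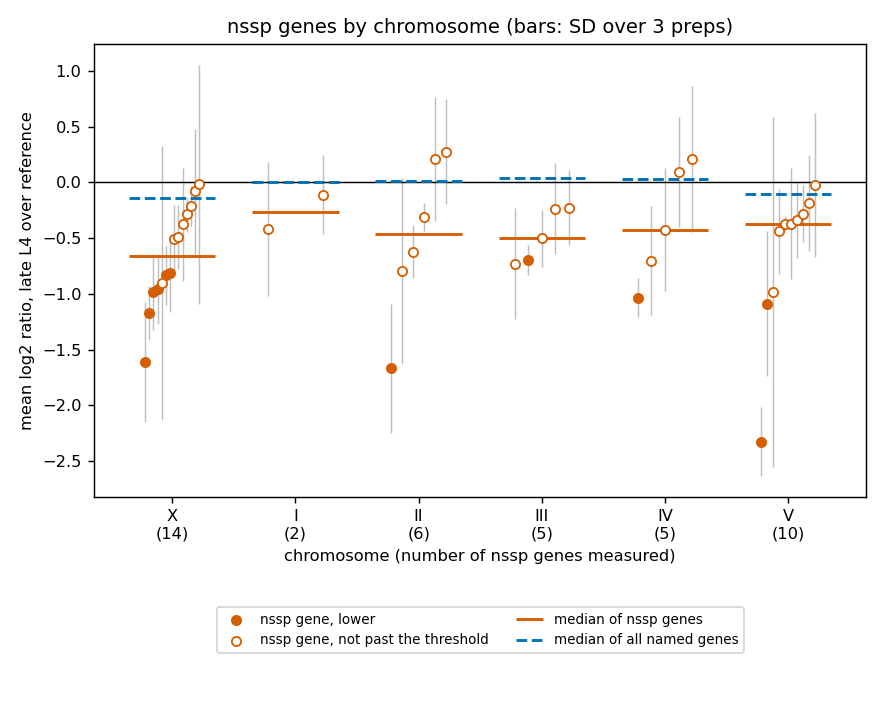
Mean log2 ratio of late L4 over mixed reference (vertical axis) for the nssp genes of each chromosome (horizontal axis), with bars of 1 SD over 3 preps; filled points passed the limma test. The solid line is the median of the chromosome's nssp genes, -0.66 on the X, and the dashed line that of all its named genes, -0.14 on the X.

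The nearest measured gene on each side of every member, chosen by position in the gene table alone, shows the level of the surroundings. These neighbours were 82 genes, none of them an *nssp* gene, with a median of -0.07. Among them 8 (9.76%) were higher and 9 (10.98%) lower, beside 12% of all genes called higher and 10.8% called lower. Of the 42 members, 27 had a mean below both of their neighbours, 10 lay between them and 5 lay above both. With the family's median at -0.43, this count in part restates the family's level and is no separate result on position. A member's mean and the average of its neighbours had a Pearson's r of 0.09 and a Spearman's rho of 0.03 over the 42 members, given as a description. The build behind the arrays is not named, so no coordinates are given.

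The gap was widest where a neighbour was itself high. No member had a mean above 0.27, so this in part restates the neighbours' own levels. *nssp-78*, at a mean log2 ratio of -1.61 ± 0.54 (SD, n = 3), lies next to *mup-2*, the gene of a muscle troponin T, at 1.91 ± 0.26. Its neighbour on the other side, T22E5.6, was at -0.23 ± 0.37. *nssp-2* (C45E1.4, chromosome I), with a mean of -0.11 ± 0.36, lies near the cuticle collagen gene *col-49* at 3.19 ± 0.30 and the nuclear hormone receptor gene *nhr-64* at -0.59 ± 0.18. *nssp-7* (C04F12.5, chromosome I), at -0.42 ± 0.60, has C04F12.6 at 2.71 ± 0.64 on one side and *rpl-14*, a ribosomal protein gene, at 0.20 ± 0.81 on the other.

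Some other low members, among them *nssp-64*, *nssp-82* and *nssp-39*, had a low gene beside them on one side only. *nssp-64* has the collagen gene *col-153* at -0.96 ± 0.26 (SD, n = 3) on one side and F17C11.26 at -0.02 ± 0.23 on the other. For *nssp-82* the neighbours were C18A11.1 at -1.73 ± 0.31, which was lower than *nssp-82* itself, and C18A11.3 at 0.65 ± 0.29. *nssp-39* stands between *lag-1*, the transcription factor gene of Notch signalling, at -0.78 ± 0.23, and *zen-4*, a kinesin gene of cytokinesis, at 0.10 ± 0.49. This did not hold for all low members. *nssp-63* lies between *nas-31* at -0.86 ± 0.38, which was called lower, and *scvp-1* at -0.64 ± 0.74, which was not. Most members that were called lower had no neighbour called lower: *nssp-23*, *nssp-29*, *nssp-55*, *nssp-76*, *nssp-78*, *nssp-87* and *nssp-88*. *nssp-22*, among the highest members, lies between ZK1321.4 at 1.33 ± 0.09 and the cytochrome P450 gene *cyp-13A1* at -1.67 ± 0.33.

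Pairs of members that lie close together did not always match in level. *nssp-54* (C12D5.5) and *nssp-55* on chromosome V have 1 protein-coding gene between them, C12D5.4, whose mean was -0.28 ± 0.07 (SD, n = 3). *nssp-55* was at -1.09 ± 0.65 and *nssp-54* at -0.44 ± 0.38, and *nssp-55* was the lower of the pair on all 3 preps. *nssp-74* (C25G6.4) and *nssp-75* (C25G6.1) on the X also have 1 gene between them, the neuropeptide receptor gene *npr-11* at -0.47 ± 0.27. Their means were close, -0.21 ± 0.18 for *nssp-74* and -0.29 ± 0.16 for *nssp-75*, and neither passed. *nssp-63* and *nssp-64*, with 6 protein-coding genes between them, were both low on preps 1 and 3, at -1.94 and -1.84 for *nssp-63* and -2.68 and -2.16 for *nssp-64*. They lay farthest apart on prep 2, at 0.83 for *nssp-63* and -2.13 for *nssp-64*, and *nssp-64* was the lower on all 3 preps.

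**Figure D4:**
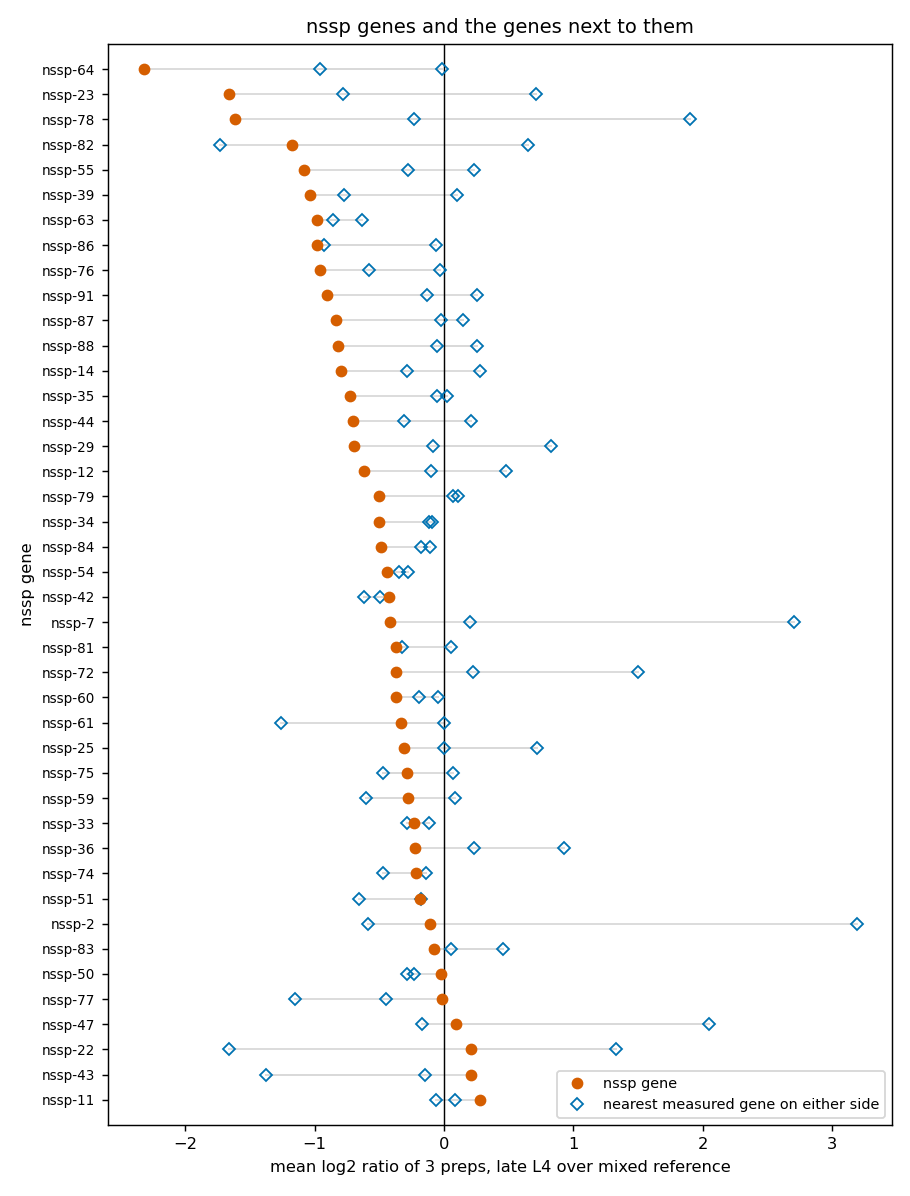
Mean log2 ratio of 3 preps, late L4 over mixed reference (horizontal axis), of each nssp gene (filled circles, lowest at the top) and of the nearest measured gene on either side of it (open diamonds). In 27 of 42 rows the nssp gene lies left of both neighbours, and the neighbours are not ordered as the members are (Pearson's r 0.09).

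For *nssp-12* (C13A10.2, chromosome II) the arrays carried a second feature, which disagreed with the first. The gene's own feature read -0.61, -0.39 and -0.86 on preps 1, 2 and 3, a mean of -0.62 ± 0.24 (SD, n = 3). The second is assigned to both *nssp-12* and F36D3.1, was left out of the gene's value for that reason, and read 0.20, 0.29 and 0.69, a mean of 0.39 ± 0.26. The 2 features thus had opposite signs on all 3 arrays. No other *nssp* gene had a second feature, so such a check was possible for 1 of the 42 members. In RefSeq, 35 members have 1 RefSeq transcript, 6 have 2 and *nssp-87* has 4; which of them a feature measures is not known here.

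The nematode specific peptide families *nspa* to *nsph*, taken by symbol, did not share 1 level; *nspe* and *nspf* genes were not analysed here. The *nspc* genes were lowest, with 3 of 4 lower and a median log2 ratio of -1.78, and *nspc-13*, the member nearest that median, at -1.67 ± 0.36 (SD, n = 3). Above them, the 7 *nspg* genes had a median of 0.05 with 2 higher, the 9 *nspb* genes 0.76 with 5 higher and the 5 *nspa* genes 0.97 with 3 higher. The *nspd* and *nsph* genes were highest, with medians of 1.95 (7 of 8 higher) and 2.89 (4 of 5 higher). None of the *nspa*, *nspb*, *nspd*, *nspg* and *nsph* genes was lower. Of the caenacin (*cnc*) genes, which encode antimicrobial peptides of the epidermis, 3 of 7 were lower and 0 higher, with a median of -0.62 and *cnc-4* at -0.62 ± 0.52. The fungus-induced *fipr* genes had a median of 0.24 with 3 of 9 lower, and the *fip* genes -0.01 with 1 of 3 lower. The *nssp* median of -0.43 thus lay below those of the *fipr* and *fip* genes and above those of the *nspc* and *cnc* genes, without a test of any of these differences.

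Sperm and collagen families, whose products late L4 animals are known to make, had higher medians. The *msp* genes, which encode the major sperm protein, had a median log2 ratio of 2.98 with 29 of 30 higher. The sperm families *ssp*, *ssq* and *smz* had medians of 1.64, 3.05 and 3.61, and the *col* genes of cuticle collagens had 1.22. The *col* genes ran from -5.06 to 4.89, with 74 of 135 higher and 21 lower. The *abu* genes had a median of 3.05, and the *phat* genes of pharyngeal glands -0.23 with 2 of 7 higher and 3 lower. Members of the *msp*, *ssp*, *ssq*, *col* and *abu* families have near-identical copies and may share signal.

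Markers of single tissues differed in level on these arrays. Sperm markers had a median log2 ratio of 1.61 with 6 of 7 higher, body wall muscle markers 1.54 with 3 of 5 higher, and hypodermis and cuticle markers 1.27 with 5 of 7 higher and 1 lower. Pharynx markers had a median of 0.79 with 2 of 5 higher and 1 lower, and markers of yolk and intestine 0.20 with 1 of 7 higher and 1 lower. Markers of the male tail and seminal fluid had a median of -0.07 with 0 of 5 past the threshold in limma, adjusted or not, and those of oocytes and eggshell -0.36 with 3 of 8 lower. Neuronal markers were the lowest list. All 7 had a mean below 0, from -2.67 for the neuropeptide gene *flp-1* to -0.31 for the syntaxin gene *unc-64*, with a median of -0.95 and 4 lower. Preps 1, 2 and 3 gave this list medians of -1.12, -0.67 and -1.05, and 5 of the 7 were highest on prep 2. This was not particular to neurons: 5 of 7 hypodermis and cuticle markers and 4 of 7 of yolk and intestine were also highest there. The counts were 3 of 8 for oocytes and eggshell, 1 of 7 for sperm and 1 of 5 for pharynx. They were 0 of 5 for body wall muscle and 0 of 5 for male tail and seminal fluid. Any part of these tissues in the *nssp* values was not tested.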

How the data were processed

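The authors deposited log2 ratios, 1 per feature and array; as powers of 2, 100% of them were multiples of 0.001 (tolerance 0.05 of a step), so they are base-2 logarithms of rounded ratios. How the authors corrected, normalized and labelled the arrays, and with which probes, is not given in the sources used here; values were used as deposited. Of 20000 features, 15655 had 1 gene symbol, and 15569 matched the gene table by Entrez ID. Averaging the 19736 features with 3 values within each gene left 15112 named genes and 4180 unnamed features. limma 3.58.1 under R 4.3.3 (lmFit, then eBayes) gave a two-sided test of each mean ratio against 0, with Benjamini-Hochberg adjustment over all 19292 rows; the prior had 12.8 degrees of freedom at an SD of 0.438. The procedure was run on simulated data whose spreads were drawn from that fitted prior. Such data meet the model's assumptions, so that run cannot show how well they hold on these arrays. Alternatives were array centring and scaling, values on at least 2 arrays, robust and unmoderated variances, features kept apart, a 2-fold threshold and leaving out each prep. Members, families, markers and tests were chosen with earlier results of these data known. All members could be named. The 6 lowest and 6 highest have values on every array, and neighbours were taken by position. No sequences were used.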

Additional observations from a re-analysis of the deposited data

How the results depend on the processing

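No paired analysis was possible because there is just 1 group of arrays. The count of lower *nssp* genes, 11, was 0 without moderation of the variance, which leaves 2 residual degrees of freedom per gene; 11 members then had an unadjusted p under 0.05. It was 6 at 2-fold or more, a stricter threshold, and 6 to 13 when 1 prep was left out, with fewer arrays fitted. It was 10 under median centring, with or without scaling, 12 with robust eBayes (adding *nssp-35*), and 11 with values on at least 2 arrays or with features kept apart. No setting called a member higher. The family's median lay between -0.53 and -0.38 under centring, scaling and leaving out 1 prep, and was the same with values on at least 2 arrays or with features kept apart. No called member changed sign in any setting. Leaving out prep 2 added calls of *nssp-35*, *nssp-63* and *nssp-91*, and leaving out prep 3 those of *nssp-14* and *nssp-44*. The cause was not tested. What dim spots contribute cannot be tested without spot intensities.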
